A study of Mus musculus with 4 samples.

Results

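The 8 genes described here make long noncoding RNAs (lncRNAs): the 6 snoRNA host genes Gas5, Snhg1, Snhg5, Snhg8, Snhg12 and Zfas1, and the 2 nuclear RNA genes Malat1 and Neat1. They were picked by symbol from the 54446 genes of the expression table, and all 8 symbols were found. A small nucleolar RNA (snoRNA) guides the chemical modification of ribosomal RNA, and in mammals most snoRNAs are trimmed out of the introns of a longer host transcript. The spliced host RNA that is left behind is often short-lived: that of Gas5 is degraded by nonsense-mediated decay, a pathway that needs ongoing translation, and host genes share with ribosomal protein genes a start of transcription within a run of pyrimidines. Malat1 RNA is held in nuclear speckles, while Neat1 RNA is the scaffold of paraspeckles. In the mammary gland, Zfas1 is known as a regulator of alveolar development, and mice without Neat1 have defects in ductal branching and lactation.

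The study asked how baicalin, a flavonoid glycoside from Scutellaria root, changes RNA levels in basal and luminal cells of the mouse mammary gland. Cells from wild type C57BL/6 female mice were sorted by FACS, embedded in growth factor-reduced Matrigel as a 3D culture, and kept in medium with DMSO as the control or with 100 μM baicalin. The 4 groups were cells labelled basal with DMSO, cells labelled basal with baicalin, cells labelled luminal with DMSO and cells labelled luminal with baicalin, and each group had 1 library of oligo(dT)-enriched RNA. No difference below therefore has a replicate check, no test between conditions was made, and intervals cover counting error only. Levels are in FPKM, the fragments of a gene divided by its exon length and by the depth of the library. The libraries held 19853604, 20283058, 19356107 and 20648791 counted fragments in the order of groups just given, so that 1 fragment on a gene with 1 kb of exon was worth between 0.0484 and 0.0517 FPKM.

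The labels went against the lists of 10 basal and 10 luminal markers, though not against every marker. All 10 of 10 basal markers were higher in the library labelled luminal with DMSO than in the library labelled basal with DMSO. Their summed level was 1771 FPKM in the library labelled basal with DMSO, 484 FPKM in the library labelled basal with baicalin, 5365 FPKM in the library labelled luminal with DMSO and 7215 FPKM in the library labelled luminal with baicalin. Krt14, a keratin of basal cells, was the most abundant of them, and Acta2, the smooth muscle actin of myoepithelial cells, read 7.66, 3.49, 555 and 417 FPKM in the same order. The 10 luminal markers went the other way: all 10 of 10 were higher in the library labelled basal with DMSO, and their sums were 4378, 2764, 1447 and 1153 FPKM, with Krt8 the most abundant over the 4 libraries. None of these 20 markers was at 0 in any library. With baicalin in both, the luminal marker Cdh1 was higher in the library labelled luminal (215 against 180 FPKM), as the label has it. Of 7 markers of hormone-sensing luminal cells, 4 were higher in the library labelled luminal with DMSO than in that labelled basal with DMSO, as the label has it: Foxa1 (9.30 against 1.80 FPKM), Cited1 (7.36 against 0.0574 FPKM), Pgr (4.81 against 1.08 FPKM) and Esr1 (1.44 against 0.992 FPKM). The other 3 went against the label: Areg (21.4 against 63.2 FPKM), Ly6a (28.0 against 50.6 FPKM) and Prlr (2.40 against 6.50 FPKM). With baicalin in both, Cited1, Pgr and Ly6a (78.1 against 23.2 FPKM) followed the label. Foxa1 (1.09 against 1.35 FPKM), Esr1 (0.723 against 0.982 FPKM), Areg and Prlr then went against it. Of 7 markers of alveolar luminal cells, 2 were higher in the library labelled luminal with DMSO and 4 in that labelled basal with DMSO. The methods of the study state that the purity of sorted cells was checked. The study also took RT-qPCR of Esr1 and Pgr as further evidence that the cells sequenced as basal were basal. Why the marker lists and the labels differ was not tested. The libraries are therefore named only by their labels here, and no result below is ascribed to basal or luminal cells.

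Per length of exon, Malat1 was the most abundant of the 8 RNAs in all 4 libraries, followed by Gas5, and Neat1 was the least abundant. In the library labelled basal with DMSO the order of levels was Malat1, Gas5, Snhg5, Snhg8, Zfas1, Snhg1, Snhg12 and Neat1, and the neighbours Zfas1 and Snhg1 had overlapping 95% Poisson intervals (18.5 to 20.8 FPKM and 17.9 to 20.1 FPKM). With baicalin under the same label, Snhg12 moved from the seventh place to the third, level with Snhg8 (48.1 to 52.1 FPKM and 46.6 to 53.3 FPKM), and Zfas1 was level with Snhg5 (41.2 to 44.6 FPKM and 40.3 to 44.6 FPKM). In the library labelled luminal with DMSO the order was Malat1, Gas5, Snhg8, Snhg5, Snhg1, Zfas1, Snhg12 and Neat1, and no neighbouring intervals overlapped. In the library labelled luminal with baicalin, Snhg12 stood above Zfas1, and its interval (29.4 to 32.5 FPKM) overlapped those of Snhg5 (32.5 to 36.4 FPKM) and Snhg1 (29.3 to 32.1 FPKM). The 6 host RNAs added up to 156, 347, 224 and 270 FPKM in the libraries labelled basal with DMSO, basal with baicalin, luminal with DMSO and luminal with baicalin. Together the 8 RNAs took 0.174%, 0.279%, 0.217% and 0.245% of all fragments in the same order.

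**Figure D1:**
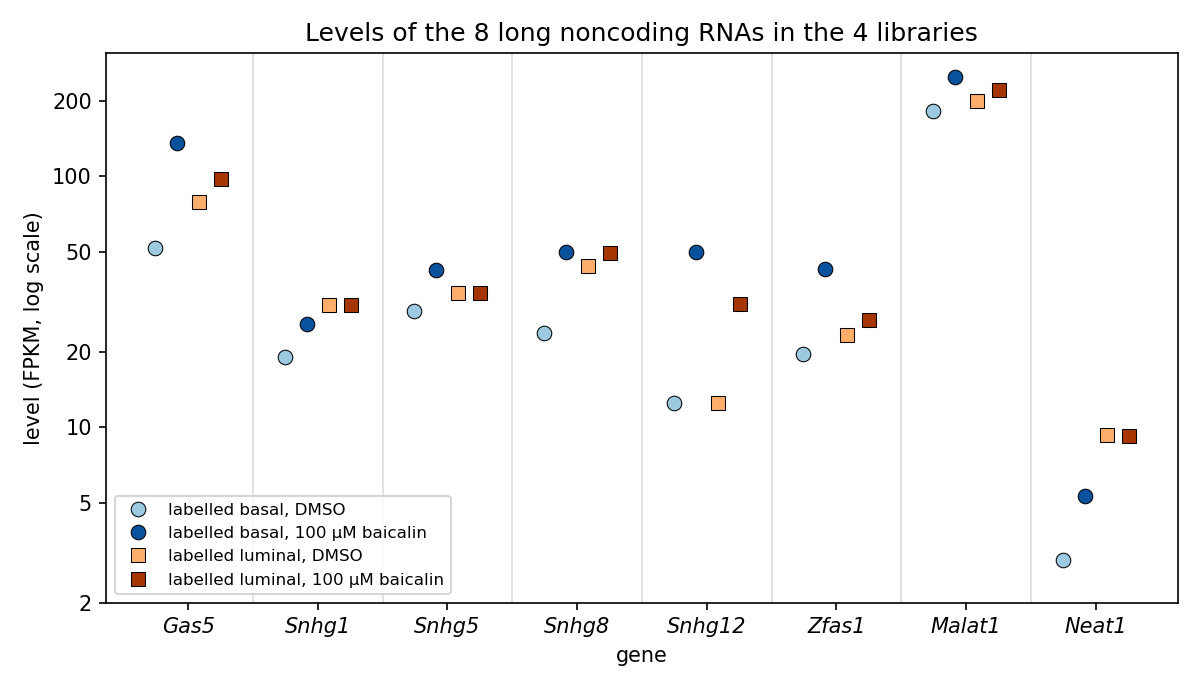
Level of each of the 8 long noncoding RNAs (x axis) in each of the 4 libraries, in FPKM on a log axis (y axis), with 1 point per library. Circles are the libraries labelled basal and squares those labelled luminal, the dark symbols are 100 μM baicalin, and the widest gap between light and dark is that of Snhg12, at 12.5 and 50.04 FPKM under the basal label.

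Snhg12 had the largest change with baicalin of the 8 RNAs under both labels. This gene (ENSMUSG00000086290, chr4:132308623-132311024 on the + strand of GRCm38) hosts snoRNAs of both the box C/D and the box H/ACA class. Its level was 12.5 FPKM in the library labelled basal with DMSO, 50.04 FPKM in that labelled basal with baicalin, 12.5 FPKM in that labelled luminal with DMSO and 30.9 FPKM in that labelled luminal with baicalin. Both DMSO libraries were low and nearly equal, and both baicalin libraries were high, the one labelled basal more so. The ratio of FPKM with baicalin to FPKM with DMSO was 4.00 under the basal label (95% exact Clopper-Pearson interval from 3.65 to 4.38; 2438 fragments against 597). Under the luminal label it was 2.48 (2.25 to 2.73; 1534 fragments against 580).

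Gas5 is the host with the most snoRNA genes among the 6, and its RNA is known to build up in cells that stop growing. The gene (ENSMUSG00000053332) lies at chr1:161034422-161038539 on the + strand. Gas5 read 51.8 FPKM in the library labelled basal with DMSO, 136 FPKM in that labelled basal with baicalin, 79.3 FPKM in that labelled luminal with DMSO and 97.7 FPKM in that labelled luminal with baicalin. The library labelled basal with baicalin was the highest and its DMSO control the lowest. Under the basal label the ratio was 2.63 (2.53 to 2.73), and under the luminal label it was 1.23 (1.19 to 1.28).

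Zfas1 (ENSMUSG00000074578, chr2:167062934-167065862, + strand) starts head to head with the protein-coding gene Znfx1 and hosts snoRNAs of the Snord12 family. The levels of Zfas1 were 19.6 FPKM in the library labelled basal with DMSO, 42.9 FPKM in that labelled basal with baicalin, 23.3 FPKM in that labelled luminal with DMSO and 26.6 FPKM in that labelled luminal with baicalin. Of the 4 libraries the one labelled basal with baicalin stood above the other 3. The ratio of baicalin to DMSO was 2.18 (2.04 to 2.34) under the basal label and 1.14 (1.06 to 1.23) under the luminal label.

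Snhg8 (ENSMUSG00000104960, chr3:123507552-123508404, − strand) is the shortest of the hosts and carries 1 snoRNA, Snora24. It read 23.7 FPKM in the library labelled basal with DMSO, 49.9 FPKM in that labelled basal with baicalin, 43.9 FPKM in that labelled luminal with DMSO and 49.5 FPKM in that labelled luminal with baicalin. Here the library labelled basal with DMSO stood apart below the other 3. The ratio was 2.10 (1.86 to 2.37) under the basal label, an interval that reaches below 2, and 1.13 (1.02 to 1.24) under the luminal label.

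Snhg5 and Snhg1 moved least among the hosts. Snhg5 (ENSMUSG00000097195, chr9:88521050-88522929, − strand), the host of Snord50a and Snord50b, read 29.1, 42.4, 34.2 and 34.4 FPKM in the libraries labelled basal with DMSO, basal with baicalin, luminal with DMSO and luminal with baicalin. Only the library labelled basal with baicalin lay above the others, with a ratio of 1.46 (1.34 to 1.58) against its DMSO control, while the ratio under the luminal label was 1.01 (0.928 to 1.09). Snhg1 (ENSMUSG00000108414, chr19:8723475-8726443, + strand) read 19.0, 25.7, 30.6 and 30.6 FPKM in the same order. Both libraries labelled luminal were above both labelled basal. The Snhg1 ratio was 1.35 (1.25 to 1.46) under the basal label and 1.002 (0.939 to 1.07) under the luminal label, so that no change was detectable beyond counting error in the latter, as for Snhg5.

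Malat1 and Neat1 are neighbours on chromosome 19. Malat1 (ENSMUSG00000092341, chr19:5795690-5802672, − strand) read 182 FPKM in the library labelled basal with DMSO, 248 FPKM in that labelled basal with baicalin, 199 FPKM in that labelled luminal with DMSO and 222 FPKM in that labelled luminal with baicalin. By these values it ranked between the second and the third place among the 9680 lncRNA genes of the table in each library. Both baicalin libraries were above their controls, by a ratio of 1.36 (1.34 to 1.39) under the basal label and 1.11 (1.09 to 1.13) under the luminal label. These narrow intervals come from the depth, since between 25239 and 35177 fragments lay on Malat1 in each library.

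Neat1 (ENSMUSG00000092274, chr19:5824708-5845478, − strand) differed most between the labels. Its levels were 2.96 FPKM in the library labelled basal with DMSO, 5.34 FPKM in that labelled basal with baicalin, 9.35 FPKM in that labelled luminal with DMSO and 9.26 FPKM in that labelled luminal with baicalin. Both libraries labelled luminal were above both labelled basal, and the difference between the 2 labelled luminal was within counting error. With baicalin the ratio was 1.81 (1.68 to 1.94) under the basal label and 0.991 (0.947 to 1.04) under the luminal label. FPKM divides by the 20771 bases of exon of the long transcript, so Neat1 looks low per length although it had 1219, 2250, 3759 and 3972 fragments. Snhg8, of far higher FPKM, had fewer in each library (402, 863, 725 and 871).

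**Figure D2:**
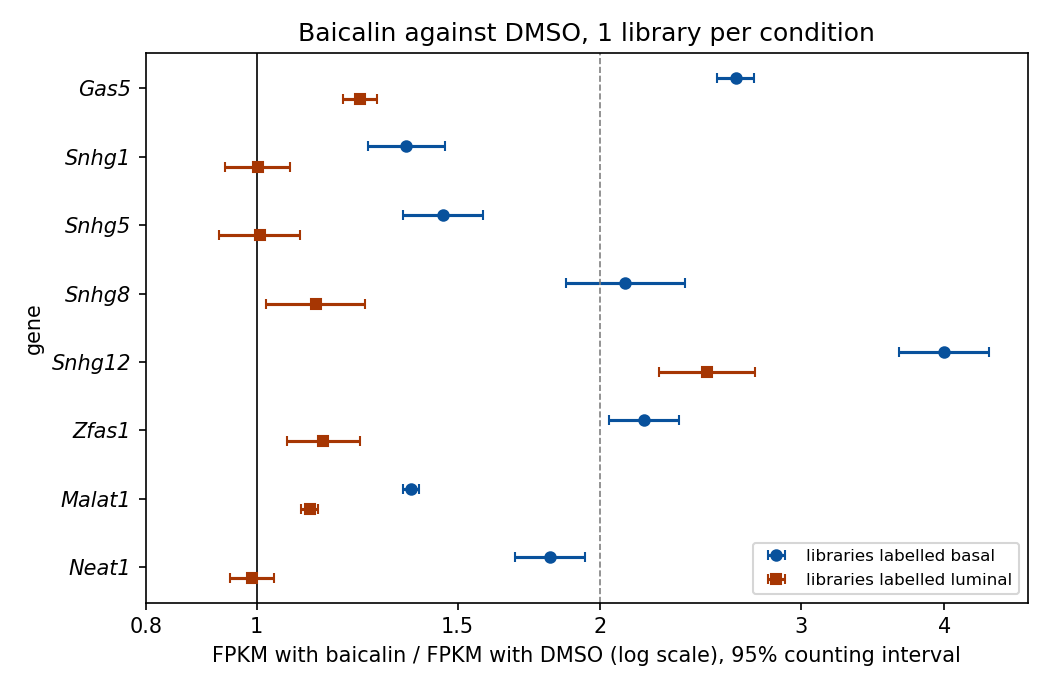
Ratio of FPKM with 100 μM baicalin to FPKM with DMSO (x axis, log scale) for each of the 8 genes (y axis), with 95% counting intervals as bars; blue circles compare the libraries labelled basal and brown squares those labelled luminal. The solid line marks a ratio of 1 and the dashed line a ratio of 2, and the highest values are those of Snhg12, 4.00 under the basal label and 2.48 under the luminal label.

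For counts over many genes, the change was taken as log2((FPKM + 1)/(FPKM + 1)) on the 17787 genes above 0 in all 4 libraries, which include all 8 RNAs, and a change past 1 in size was called. Under the basal label 4 of the 8 RNAs were called higher with baicalin (Snhg12 at 1.92, Gas5 at 1.38, Zfas1 at 1.09 and Snhg8 at 1.04), against 383 of all genes or 2.15%. None of the 8 was called lower, against 592 of all genes or 3.33%. The median change of the 8 RNAs was 0.86 on the log2 scale, with Snhg1 lowest at 0.42, and that of all genes was 0.01. Among the 1508 lncRNA genes above 0 in all 4 libraries, 21 or 1.39% were called higher and the median was 0.05. Among the 9154 genes that also reached 5 FPKM in a library, as the 8 RNAs did, 293 or 3.2% were called higher.

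Under the luminal label 1 of the 8 RNAs, Snhg12 at 1.24, was called higher with baicalin, where 421 of all genes or 2.37% were. None was called lower, against 282 genes or 1.59%. The median of the 8 was 0.16 and that of all genes −0.02, and the changes reached from −0.01 for Neat1 to 1.24. The share called higher was 0.729% among the lncRNA genes (11 of 1508, median −0.01) and 3.93% among the genes that reached 5 FPKM (360 of 9154).

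A lower bar, a fold past 1.5 on the same scale, added Neat1 under the basal label: 5 of the 8 RNAs were higher and 0 lower, where 7.24% of all genes were higher and 7.78% lower. Under the luminal label the count stayed at 1 higher and 0 lower, beside 6.3% and 6.01% of all genes. The change under the basal label was above that under the luminal label for each of the 8 RNAs. The difference between both log2 changes was 1.08 for Gas5, 0.90 for Zfas1, 0.87 for Snhg8, 0.69 for Neat1 and 0.67 for Snhg12. It was 0.52 for Snhg5, 0.41 for Snhg1 and 0.29 for Malat1. These differences were not tested, since each group has 1 library.

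Between the labels, with DMSO in both, 1 of the 8 RNAs was called higher under the luminal label, Neat1 at a log2 difference of 1.39 (ratio 3.16, interval 2.96 to 3.38), and 0 were called lower, beside 4.71% and 3.86% of all genes. At a fold past 1.5, 4 were higher and 0 lower, beside 11.5% and 9.95%. These 4 were Neat1, Snhg8 at 0.86, Snhg1 at 0.66 and Gas5 at 0.60; rescaled to TPM, Snhg1 (0.57) and Gas5 (0.50) no longer passed. The median of the 8 was 0.42, that of all genes 0.01, and Snhg12 was equal in both libraries (ratio 0.996, interval 0.887 to 1.12).

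With baicalin in both, 2 of the 8 RNAs were higher under the luminal label and 6 lower, where with DMSO it had been 7 and 1. All genes turned the same way, with 8046 higher and 9741 lower with baicalin, and 9340 and 8447 with DMSO. None of the 8 was called higher or lower at the log2 difference of 1, where 5.24% and 2.99% of all genes were. At a fold past 1.5 there were 1 higher and 2 lower of the 8, where 10.7% and 9.46% of all genes were. Neat1 was the higher one, at 0.69, and Snhg12 at −0.68 and Zfas1 at −0.67 were the lower ones; centred on the median ratio of genes of at least 1 FPKM in all 4 libraries, neither of the lower ones passed. Snhg8 read the same under both labels (ratio 0.991, interval 0.901 to 1.09). The median of the 8 was −0.23 and that of all genes −0.03. The 4 comparisons are built from 4 libraries and each library enters 2 of them, so they are not independent. In bulk samples such as these, fewer cells of a type and less RNA per cell cannot be told apart.

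Other measures moved between the same libraries; the most abundant gene of each marker list is named over the 4 libraries together. From DMSO to baicalin under the basal label, 1 of 10 basal markers and 2 of 10 luminal markers were higher; under the luminal label it was 6 of 10 and 1 of 10. The 7 markers of hormone-sensing luminal cells summed to 124, 187, 74.7 and 121 FPKM in the libraries labelled basal with DMSO, basal with baicalin, luminal with DMSO and luminal with baicalin, with Areg the most abundant. The rise in these sums was not shared by most of the list, since 2 of 7 were higher with baicalin under each label, and Areg alone went from 63.2 to 158 FPKM under the basal label. The 7 markers of alveolar luminal cells summed to 198, 107, 64.3 and 167 FPKM, with Aldh1a3 the most abundant; 0 of 7 were higher with baicalin under the basal label and 1 of 7 under the luminal label, Aldh1a3 from 46.4 to 163 FPKM. The milk protein gene Wap was at 0 in every library. Cells outside the epithelium left little signal: the 8 immune markers summed to 17.8, 54.5, 6.01 and 17.8 FPKM, with Cd68, a lysosomal protein gene, the most abundant, while the pan-leukocyte gene Ptprc stayed at or below 0.0138 FPKM. With baicalin 1 of 8 immune markers was higher under the basal label, Cd68 from 7.49 to 51.5 FPKM, and 6 of 8 under the luminal label. Among these 6, Ptprc, Adgre1 and Csf1r stayed at or below 0.0496 FPKM under that label, close to the floor. The 7 fibroblast markers summed to 7.22, 3.07, 11.2 and 9.82 FPKM (most abundant Pdgfra); 1 of 7 was higher with baicalin under the basal label and 6 of 7 under the luminal label, where Pdgfra alone fell, from 6.30 to 1.67 FPKM. The 4 adipocyte markers summed to 0.163, 0.884, 15.6 and 5.29 FPKM (most abundant Fabp4; 2 of 4 higher under the basal label, 0 of 4 under the luminal label) and the 5 endothelial markers to 0.876, 1.27, 1.75 and 3.46 FPKM (most abundant Cdh5; 4 of 5 and 5 of 5). Each endothelial marker stayed at or below 1.34 FPKM in every library. Of the 3 erythroid markers Hba-a1 and Hbb-bs were at 0 in every library, and Alas2 gave the whole sum of 0.0419, 0.041, 0.151 and 0.0806 FPKM. Mitochondrially encoded genes took 7.68%, 6.65%, 10.6% and 9.16% of the summed FPKM, and the mitochondrial ribosomal RNAs among them 0.175%, 0.502%, 0.15% and 0.242%, with the largest share in the library labelled basal with baicalin. The part of cell composition, and of RNA quality, in the changes of the 8 RNAs was not tested.

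The other snoRNA host lncRNAs were a list of 15 symbols, of which 12 could be compared. Under the basal label 9 were higher and 3 lower with baicalin, 3 of them past 1, with a median of 0.53 beside 0.01 for all genes. The library labelled basal with DMSO was also low for this list beside the other DMSO library, with 9 higher and 3 lower under the luminal label and a median of 0.60. Epb41l4aos had the largest change with baicalin under the basal label, 1.62 on the log2 scale, beside 0.41 under the luminal label. It read 11.9, 38.9, 20.1 and 27.0 FPKM in the libraries labelled basal with DMSO, basal with baicalin, luminal with DMSO and luminal with baicalin. Like Gas5, it was highest with baicalin under the basal label. Snhg11 read 2.61, 6.61, 1.17 and 4.72 FPKM (1.08 and 1.40), Snhg15 7.26, 15.7, 9.16 and 13.0 FPKM (1.02 and 0.46), and Snhg6 16.0, 30.9, 14.9 and 18.9 FPKM (0.91 and 0.33). Snhg11 shared with Snhg12 a change past 1 under both labels. Changes of the remaining named hosts were 0.72 and 0.16 for Snhg17, 0.62 and −0.08 for Snhg20, 0.44 and 0.45 for Snhg18, 0.17 and 0.15 for Dancr, and 0.14 and −0.54 for Snhg10. Those of Dancr and Snhg10 under both labels, and that of Snhg20 under the luminal label, were within counting error. Snhg10 had only 7 to 17 fragments per library. Snhg3 read 8.17, 6.90, 12.3 and 7.66 FPKM, with changes of −0.22 and −0.62. Its ratio was 0.844 (0.667 to 1.07) under the basal label, within counting error, and 0.622 (0.505 to 0.765) under the luminal label. Snhg4 changed by −0.14 and −0.51, without intervals, since its fragments could not be recovered. Under the luminal label the median of the 12 was 0.15, with 7 higher and 5 lower, beside −0.02 for all genes. Snhg7 and Snhg16 were not analysed here.

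Among 7 other nuclear lncRNAs the medians were 0.00 under the basal label and −0.12 under the luminal label. Pvt1, which lies beside Myc, read 1.39, 5.84, 0.857 and 2.04 FPKM, with changes of 1.52 and 0.71. Firre, an RNA of the X chromosome, read 17.05, 34.8, 21.7 and 21.3 FPKM, with changes of 0.99 and −0.03. Airn, the antisense RNA of the imprinted Igf2r locus, changed by −0.17 and −0.62. Norad was not analysed here.

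Protein-coding hosts carry snoRNAs in the introns of genes for ribosomal, translation and nucleolar proteins, and 15 were compared. Their median was 0.22 under the basal label (10 higher, 5 lower) and −0.08 under the luminal label (4 higher, 11 lower), and none passed 1. With DMSO in both, 10 were higher and 5 lower under the luminal label than under the basal label (median 0.44). Eif4a2, a translation initiation helicase, read 59.0, 95.6, 66.5 and 58.6 FPKM (0.69 and −0.18). Rpl7a read 272, 284, 384 and 227 FPKM (0.06 and −0.75). The 81 cytosolic ribosomal protein genes compared, a group known for the same kind of start as host genes, had a median of 0.42 under the basal label (77 higher, 4 lower) and −0.03 under the luminal label (24 higher, 57 lower). With DMSO in both, 77 of them were also higher and 4 lower under the luminal label than under the basal label (median 0.52), so the library labelled basal with DMSO was low for this list. Of these Rps14 read 317, 545, 493 and 507 FPKM (0.78 and 0.04), Rps19 60.03, 104, 89.9 and 98.8 FPKM (0.78 and 0.13), and Rpl17 349, 585, 550 and 310 FPKM (0.74 and −0.82).

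RNA levels of the genes for proteins that work on these RNAs were compared next, and of all genes 9057 were higher and 8728 lower with baicalin under the basal label, 8115 and 9670 under the luminal label. Of 18 genes for snoRNP proteins, which bind snoRNAs or build their particles, 13 were lower under the basal label (median −0.24) and 14 under the luminal label (median −0.18), and 0 of 18 passed 1 under either label. Dkc1, the pseudouridine synthase of H/ACA particles and itself a snoRNA host, changed by −0.62 and −0.23. Fbl, the methyltransferase of C/D particles, read 31.9, 22.7, 39.5 and 29.5 FPKM (−0.47 and −0.41), and Ruvbl1, an assembly factor, changed by −0.55 and −0.19. The 18 nonsense-mediated decay factors had medians of −0.08 and −0.05, with 7 higher and 11 lower under each label. Magoh, a subunit of the exon junction complex, was lowest at 86.9, 54.9, 97.0 and 61.8 FPKM (−0.65 and −0.64), followed by its partner Rbm8a (−0.48 and −0.45), and the endonuclease Smg6 changed by −0.32 and −0.36.

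Paraspeckle proteins assemble on Neat1. Of 21 compared, 16 were lower with baicalin under the basal label (median −0.33) and 19 under the luminal label (median −0.34), and none passed 1. Nono, a core paraspeckle protein, read 134, 88.3, 134 and 94.3 FPKM (−0.60 and −0.50). Pspc1 read 4.73, 5.01, 8.07 and 4.88 FPKM (0.07 and −0.63), and the cold-inducible RNA-binding protein gene Rbm3 changed by −0.58 and −0.34. Of 20 proteins of nuclear speckles, where Malat1 resides, 15 were lower under the basal label (median −0.16) and 18 under the luminal label (median −0.15). The splicing factor Srsf1 read 60.5, 39.0, 53.4 and 36.4 FPKM (−0.62 and −0.54), Tra2a changed by −0.55 and −0.13, and Pnn by −0.32 and −0.62. The 12 genes for RNase P, RNase Z and the methyltransferase Mettl16, which act on the 3′ ends of Malat1 and Neat1, had medians of −0.02 and −0.04. Pop1, the large RNase P protein, was called lower under the basal label, at 5.53, 2.05, 2.65 and 2.55 FPKM (−1.10 and −0.04), while Pop5 changed by −0.53 and −0.49 and Pop7 by 0.26 and 0.52.

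**Figure D3:**
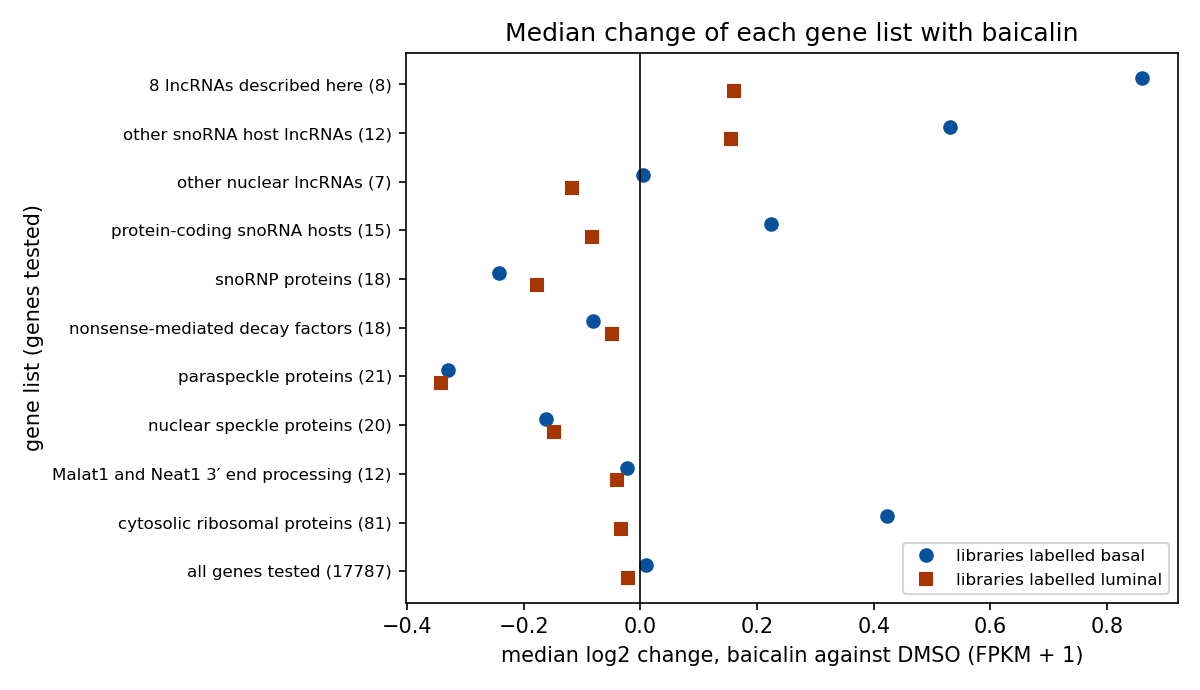
Median log2 change with baicalin (x axis, on FPKM + 1) of the 8 RNAs, of 9 other gene lists and of all genes tested (y axis, with the number of genes compared in parentheses). Circles compare the libraries labelled basal and squares those labelled luminal; the 8 RNAs are farthest right under the basal label, at 0.86, and the paraspeckle proteins are farthest left, at −0.33 and −0.34.

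The annotation places 29 snoRNA genes inside the 6 hosts on the same strand: 10 in Gas5, 8 in Snhg1, 5 in Snhg12, 3 in Zfas1, 2 in Snhg5 and 1 in Snhg8. They are intronic to the spliced transcripts, yet each of the 29 also lies within an exon of at least 1 annotated host transcript that keeps the intron. All 29 were listed at 0 in all 4 libraries, so the table holds no readout of the snoRNAs that the changes of their hosts could be set beside. Over the whole table, 5 of 151 snoRNA genes that lie inside an exon of another gene were above 0 in a library (3.31%), against 216 of 1407 that do not (15.4%). The part of gene overlap, RNA length and poly(A) selection in these zeros was not tested.

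**Figure D4:**
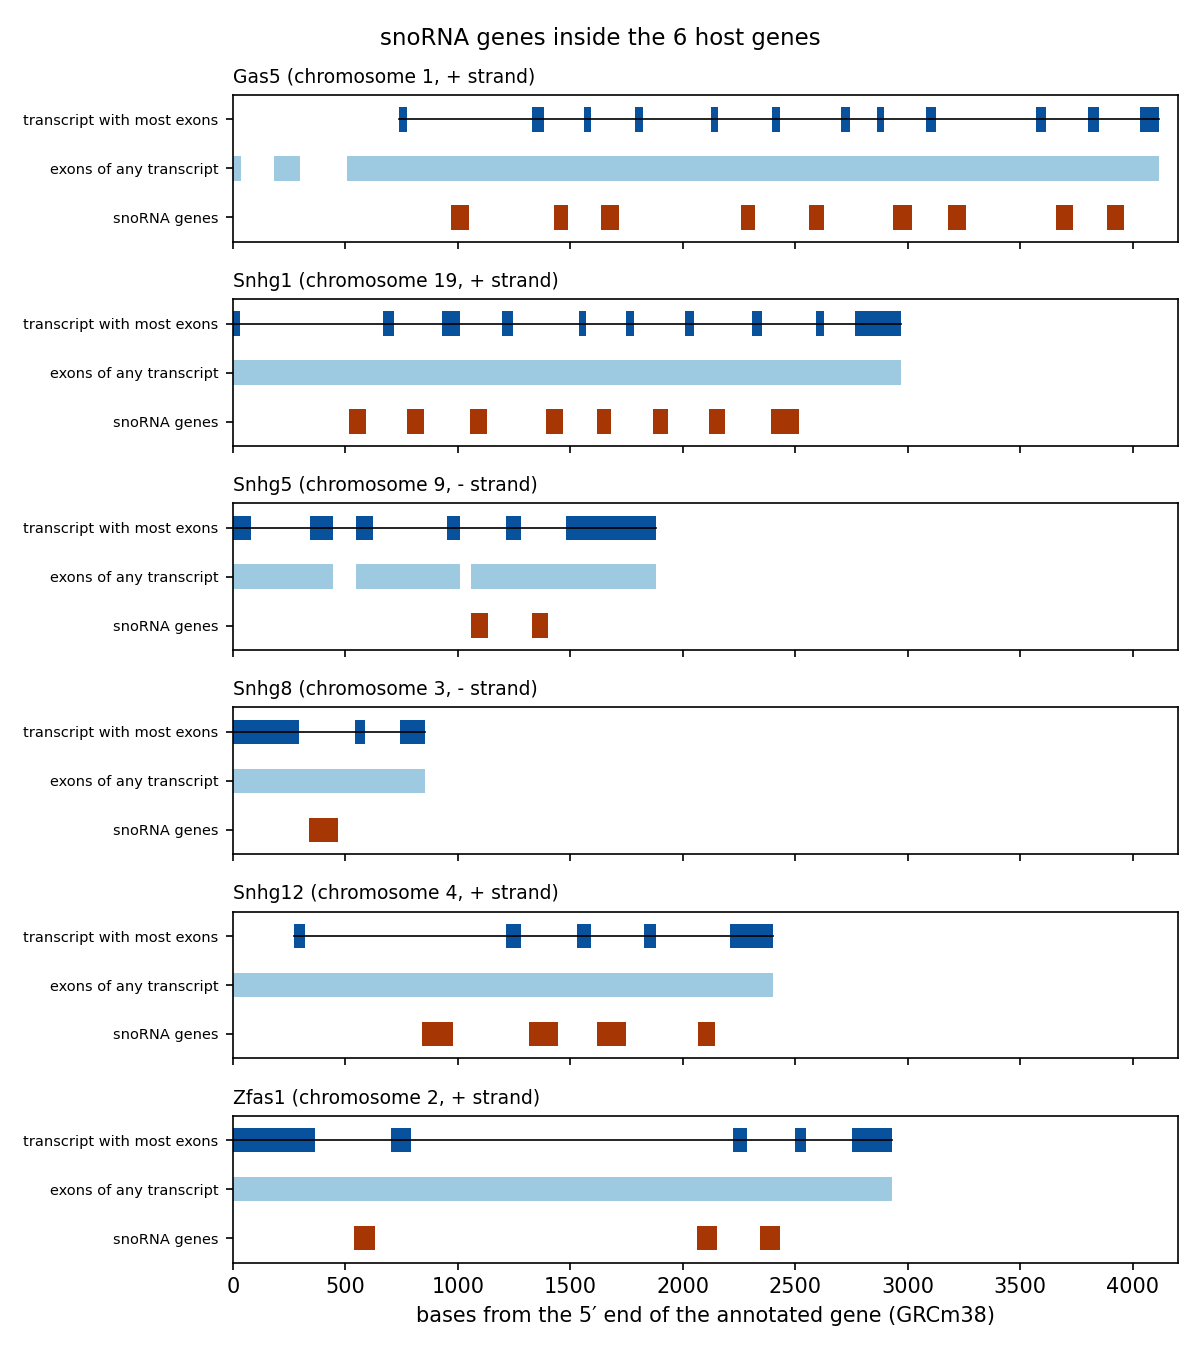
Map of the 6 host genes, drawn from the 5′ end, with the position in bases on the x axis (GRCm38). In each panel the top track is the annotated transcript with the most exons, the middle track every exon of any transcript, and the bottom track the snoRNA genes, which are 29 in all; a pair of entries each for Snord80 and Snora16a overlap and appear as 1 block.

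Classes of snoRNA are told apart by short sequence boxes, and 1 snoRNA per host is shown so that the product of each gene can be read. Box C/D snoRNAs guide 2′-O-methylation and box H/ACA snoRNAs guide pseudouridylation. Of the 29 sequences, 19 hold TGATGA in their first 20 bases and CTGA in their last 20 bases, 4 others hold ACA in their last 8 bases, and 6 hold neither pattern in these exact letters. Sequences are from the GENCODE transcripts on GRCm38, read on the strand of the gene, with these letters in capitals: Snord80 of Gas5 at chr1:161037601-161037681 (+), Gm25855 of Snhg1 at chr19:8723993-8724064 (+), Snord50a of Snhg5 at chr9:88521529-88521600 (−), Snora24 of Snhg8 at chr3:123507937-123508066 (−), Snord99 of Snhg12 at chr4:132310691-132310764 (+) and Snord12 of Zfas1 at chr2:167065276-167065365 (+).
Snord80: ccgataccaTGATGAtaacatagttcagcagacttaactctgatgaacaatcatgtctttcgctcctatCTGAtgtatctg
Gm25855: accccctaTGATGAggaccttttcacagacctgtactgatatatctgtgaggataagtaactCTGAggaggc
Snord50a: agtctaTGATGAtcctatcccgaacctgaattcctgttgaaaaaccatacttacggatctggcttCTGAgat
Snora24: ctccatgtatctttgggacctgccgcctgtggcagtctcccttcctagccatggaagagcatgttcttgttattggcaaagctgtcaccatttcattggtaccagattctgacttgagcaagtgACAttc
Snord99: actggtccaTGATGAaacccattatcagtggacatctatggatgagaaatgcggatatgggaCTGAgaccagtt
Snord12: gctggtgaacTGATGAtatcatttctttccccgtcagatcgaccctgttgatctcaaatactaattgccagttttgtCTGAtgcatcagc

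Since most of the hosts were higher together under the basal label, the sequence around their starts of transcription was read. RefSeq start windows (GRCm38.p6) were matched for 7 of the 8 genes, Gas5 with a pair of starts, and Neat1 had no entry. A gene was counted when at least 1 of its windows held the motif; of the pair for Gas5 1 window held both motifs below and the other neither. The letters TATA on the strand of the gene, within 50 bases before the start, were found for 5 of 6 hosts, against 10.7% of 27025 genes. CTTT on the same strand, from 20 bases before to 20 bases after the start, was found for 4 of 6 hosts, against 18.2% of genes. The same 4 hosts had both, against 2.13% of genes. Both motifs and their windows were chosen after these sequences had been seen. In the 4 windows with both, the motifs do not overlap, and a match is a description of letters, not a binding site. The 4 windows with both are printed from 50 bases before to 20 bases after the start on the strand of the gene, with TATA (or TATATA) and CTTT in capitals: Gas5 at chr1:161035116-161035185 (+), Snhg12 at chr4:132308628-132308697 (+), Snhg8 at chr3:123508317-123508386 (−) and Snhg5 at chr9:88522878-88522947 (−).
Gas5: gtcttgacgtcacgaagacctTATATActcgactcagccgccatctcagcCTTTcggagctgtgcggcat
Snhg12: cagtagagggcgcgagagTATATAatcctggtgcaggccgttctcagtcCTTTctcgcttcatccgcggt
Snhg8: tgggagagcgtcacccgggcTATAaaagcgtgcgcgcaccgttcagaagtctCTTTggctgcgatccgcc
Snhg5: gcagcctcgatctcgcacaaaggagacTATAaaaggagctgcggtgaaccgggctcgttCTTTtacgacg

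Of these 4 hosts, Gas5, Snhg12 and Snhg8 were called higher with baicalin under the basal label and Snhg5 was not. Zfas1, which was called, had neither motif in its window, and Snhg1 had TATA alone. Transcripts that begin with C followed by at least 4 pyrimidines (C or T) made up 5 of 25 annotated transcripts of Gas5, 3 of 10 of Snhg12, 1 of 6 of Snhg5, 1 of 3 of Snhg8, 1 of 5 of Zfas1 and 0 of 18 of Snhg1. Neither Malat1 nor Neat1 had such a transcript (0 of 4 each). At least 1 such transcript was found for every host but Snhg1, for 8.87% of all genes compared and for 42.0% of the ribosomal protein genes. The 1573 other genes with such a transcript had medians of 0.02 under the basal label and −0.02 under the luminal label, beside 0.01 and −0.02 for the 16206 without. The first letters of annotated transcripts missed most ribosomal protein genes, which are known for this kind of start. These sets are therefore not a split by the real start of transcription, and such a split was not tested.

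Malat1 and the long form of Neat1 are not ended by an ordinary poly(A) tail: RNase P cuts both, and a triple helix that folds on a genomically encoded A-rich tract protects the end. The libraries were enriched with oligo(dT), which binds runs of A, so how an RNA ends bears on how its level is read. The part of Malat1 that holds this tract (chr19:5795928-5796079, − strand, GRCm38) is shown with its run of 12 A, bases 6674 to 6685 of a transcript of 6983 bases, in capitals. The end of the long Neat1 transcript (chr19:5824708-5824807, − strand) is shown with a run of 5 A, and that of the short transcript of 3004 bases (chr19:5842307-5842406, − strand), which is polyadenylated, with the poly(A) signal AATAAA at bases 2985 to 2990.
Malat1: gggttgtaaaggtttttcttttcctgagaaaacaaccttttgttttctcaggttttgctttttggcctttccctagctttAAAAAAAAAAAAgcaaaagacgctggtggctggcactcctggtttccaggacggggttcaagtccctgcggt
Neat1 long transcript: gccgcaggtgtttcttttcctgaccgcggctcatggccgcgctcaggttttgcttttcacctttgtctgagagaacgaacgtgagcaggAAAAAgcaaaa
Neat1 short transcript: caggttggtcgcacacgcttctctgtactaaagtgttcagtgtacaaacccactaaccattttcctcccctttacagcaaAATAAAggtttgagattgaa

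The table gives 1 value per gene, so the short and the long form of Neat1 cannot be told apart in it. The same holds for spliced and intron-keeping transcripts of the hosts, whose exons together cover 3760 bases for Gas5, 2969 for Snhg1, 2929 for Zfas1, 2402 for Snhg12, 1730 for Snhg5 and 853 for Snhg8. A change in FPKM of a host is therefore a change in the sum of its transcripts.

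The libraries were made with a stranded kit, but the strand setting of the counting was not stated, which leaves fragments over antisense neighbours uncertain. Znfx1 shares 82 exon bases with Zfas1 on the opposite strand and read 8.76, 6.14, 2.68 and 2.83 FPKM in the libraries labelled basal with DMSO, basal with baicalin, luminal with DMSO and luminal with baicalin. It was lower with baicalin under the basal label (−0.45 on the log2 scale), where Zfas1 was higher. Slc3a2, the heavy chain of amino acid transporters, starts 106 bases from Snhg1 on the opposite strand without overlap, and read 62.0, 149, 110 and 136 FPKM (1.25 and 0.30). Snhg1 had the smaller change of this pair under the basal label, 0.42. Zbtb37 overlaps Gas5 by 428 bases on the opposite strand but by 0 exon bases, and read 2.38, 3.89, 2.96 and 2.42 FPKM (0.53 and −0.21). Prss12 (chr3:123446913-123506597, + strand) has the nearest protein-coding start to Snhg8, at 61491 bases from the start of Snhg8, and does not overlap it. Prss12 read 4.55, 1.69, 10.1 and 10.5 FPKM (−1.05 and 0.05), opposite in direction to Snhg8 under the basal label.

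Nearest protein-coding genes with changes below 1 in size were Zfp949 for Snhg5 (−0.75 and −0.27), Rab42 for Snhg12 (0.40 and 0.04) and Frmd8 for Neat1 (−0.25 and 0.29). The start of Zfp949 lies 25091 bases from that of Snhg5, and that of Rab42 5238 bases from that of Snhg12. Rab42 had only 3 to 9 fragments per library, and its changes were within counting error. Gm37376, annotated on the opposite strand inside Malat1 over 453 bases, was listed at 0 in all 4 libraries. Near-identical stretches in other genes could share fragments with Snhg5 and Zfas1. Snhg5 has a stretch of 233 bases that is at least 95% identical to 9330159M07Rik and 9430037G07Rik, which stayed at or below 1.17 FPKM. Zfas1 has a stretch of 201 bases with such a match in Nasp (24.3, 8.77, 22.4 and 12.6 FPKM in the order of the groups above) and in Ythdc1 (9.34, 9.63, 5.63 and 5.89 FPKM) and one of 200 bases in Slfn5, which stayed at or below 0.343 FPKM. The matches in Nasp and Ythdc1 run on the strand opposite to their transcripts, and that in Slfn5 on the same strand. Whether fragments of the opposite strand were counted was not stated. No other gene met this limit of 95% over 200 bases for the other 6 members, apart from Gm37376.

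Among themselves the 8 profiles were compared by the Euclidean distance between log2(FPKM + 1) values, each centred on its mean over the 4 libraries. The closest pair was Snhg5 and Malat1, at a distance of 0.118, and next came Gas5 and Zfas1 at 0.357. Snhg12 and Neat1 were the farthest apart, at 1.86: the former differed by treatment and the latter mainly by label. Over the 8038 other genes with a mean of at least 5 FPKM, the closest to the mean profile of the 6 hosts were Rpl9-ps4 (distance 0.074; 8.96, 20.6, 12.1 and 15.3 FPKM), Rps12-ps3 (0.097) and Flcn (0.105). For Malat1 they were Zyg11b (0.032), Zfand3 (0.038) and Itgb5 (0.04), and for Neat1 Hist1h2bc (0.081; 13.9, 22.7, 35.3 and 36.6 FPKM), Snord91a (0.169) and Rbpms (0.216). These distances rest on 4 libraries.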

How the data were processed

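RNA of 4 libraries, 1 per group, was taken as FPKM from the deposited table. The authors aligned reads with HISAT2 to GRCm38, counted with featureCounts 1.5.0 on Ensembl release 94 and scaled to FPKM; the submitters' processing notes also name Bowtie 0.12.2, with no role given. Groups came from the sample titles. Genes were matched by identifier to GENCODE mouse release 21. Library depth was recovered as the number of fragments at which the products of FPKM and exon length became whole (within 0.1 fragments for 97.7% to 97.8% of values under 1000 fragments, and for all 32 values of the 8 RNAs). Changes used a pseudocount of 1 FPKM and genes above 0 in all 4 libraries. Ratios carry exact Clopper-Pearson 95% intervals. Named genes were the 8 RNAs, the 3 genes of each list with the largest change among those reaching 5 FPKM, other hosts reaching 1 FPKM, the 3 closest profiles, hosted snoRNAs, neighbours and markers. A neighbouring gene is not reported here. Members and lists were chosen with earlier results of these data known. Other pseudocounts, filters, scalings and thresholds were tried. The steps were tested on simulated data. BLAST+ 2.17.0 found near-identical stretches, and Python 3.11.15 with scipy 1.17.1, pandas 2.3.3, numpy 2.4.6 and matplotlib 3.10.9 did the rest.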

Additional observations from a re-analysis of the deposited data

Results flagged for a closer look

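Among the genes named in the text from the lists, and the nearest protein-coding neighbours, 5 moved in opposite directions with baicalin under the labels basal and luminal, with counting intervals of the ratio on opposite sides of 1. For 4 of them the interval lay above 1 under the basal label and below 1 under the luminal label. Rpl17, a ribosomal protein gene, had ratios of 1.68 (1.63 to 1.72) and 0.564 (0.549 to 0.579), and its log2 change under the basal label was above that under the luminal label by 1.57. For Eif4a2, a host of snoRNAs, the ratios were 1.62 (1.57 to 1.67) and 0.881 (0.851 to 0.911), a difference of 0.87 on the log2 scale. Rpl7a, also a host, had ratios of 1.04 (1.01 to 1.07) and 0.592 (0.576 to 0.608), a difference of 0.81. Zbtb37, which overlaps Gas5 on the opposite strand, had ratios of 1.64 (1.504 to 1.78) and 0.820 (0.750 to 0.896), a difference of 0.74. Frmd8, near Neat1, went the other way round, with ratios of 0.832 (0.777 to 0.891) and 1.24 (1.15 to 1.34), a difference of −0.54. Over whole lists, named genes included, intervals on opposite sides of 1 were found for 39 of 81 ribosomal protein genes (48.1%; 38 of them above 1 under the basal label), 6 of 15 protein-coding hosts, 3 of 20 genes for speckle proteins, 1 of 7 other nuclear lncRNAs, 1 of 21 genes for paraspeckle proteins, and 1 of 18 each for snoRNP proteins and nonsense-mediated decay factors. The other hosts and the 3′ end processing genes had 0. Beside these stood 10.6% of all genes (1886 of 17781), 15.1% of those that reached 5 FPKM (1378 of 9151), and 32.1% of the 56 other genes at least as abundant as the median ribosomal protein gene, whose intervals are narrow too (18 genes, 4 of them above 1 under the basal label). None of the 8 RNAs did so: Neat1 was the only member with a ratio under 1 in a baicalin comparison, and its interval reached from 0.947 to 1.04. With 1 library per group these differences between the labels were not tested. The intervals and counts of this paragraph are on FPKM, with no other scaling reported for them. That of Rpl7a under the basal label starts close to 1, at 1.01.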

How the results depend on the processing

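Of 10 other settings, 4 can alter the change of a single gene: a pseudocount of 0.1 FPKM, no pseudocount, TPM, and centring on the median ratio. Of 128 changes of the 8 RNAs recomputed under these, 110 stayed inside the counting interval of the reported change, 18 lay outside it, and no called change took the other sign. The other 6, filters and thresholds, leave a gene's change as it is by construction. Small changes of Neat1 with baicalin under the luminal label (−0.01 to 0.02), and of Snhg12 with DMSO (−0.11 to 0.03) and Snhg8 with baicalin (−0.08 to 0.08) between the labels, took both signs across settings. The median of the 8 stayed between 0.84 and 0.96 under the basal label and between 0.16 and 0.20 under the luminal label. Rescaled to TPM, it was 0.32 for luminal against basal with DMSO and −0.30 with baicalin; centred on the median ratio, the latter was −0.13.

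Counts of genes higher and lower are given as reported and then by setting. Baicalin under the basal label (383 and 592): 1123 and 1302 with a pseudocount of 0.1 FPKM, 1693 and 2054 with none, 696 and 1002 with TPM, 1288 and 1384 past a fold of 1.5, 41 and 132 past a log2 change of 2, and 269 and 352 among genes of at least 1 FPKM in all 4 libraries. Baicalin under the luminal label (421 and 282): 1052 and 913, 1559 and 1537, 718 and 578, 1121 and 1069, 60 and 46, and 291 and 132, in the same order. Luminal against basal label with DMSO (837 and 686): 2027 and 1467, 2872 and 1926, 1306 and 1279, 2046 and 1769, 185 and 150, and 403 and 493; a filter of 5 FPKM in a library, chosen after seeing the data, gave 545 and 540. The excess of higher over lower genes in this comparison was thus turned round by the former filter and nearly gone with the latter and with TPM. Luminal against basal label with baicalin (932 and 531): 2030 and 1327, 2632 and 2003, 1439 and 1083, 1902 and 1682, 242 and 59, and 484 and 352. A smaller pseudocount lets low genes pass and a filter or a higher threshold leaves fewer by construction; for the rest the cause was not tested. Past a log2 change of 2, 0 of the 8 RNAs were called in these comparisons. Past a fold of 1.5, 4 were called higher between the labels with DMSO, and 1 higher and 2 lower with baicalin. These calls depended on the scale: with TPM the 4 became 2, since Gas5 and Snhg1 fell short, and centred on the median ratio the 2 lower ones, Snhg12 and Zfas1, became 0. Calls with baicalin against DMSO, at either threshold, and calls past 1 between the labels were the same under the 4 settings named first.

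No paired analysis was possible because each group has 1 library, and no library could be left out. Differences between conditions, cultures and library preparations cannot be told apart. Relative to the ratio they belong to, counting intervals of the 8 RNAs are widest for Snhg8, which had 402 to 871 fragments per library. For the levels this holds except in the library labelled luminal with DMSO, where Snhg12 had fewer fragments (580 against 725). With DMSO, the labels of the libraries went against the 10 basal and 10 luminal markers, while 4 of 7 hormone-sensing markers followed them. With baicalin, Cdh1 and Ly6a also followed the labels, while Foxa1 and Esr1 no longer did.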
